A study of Homo sapiens with 12 samples.

Results

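PTPRC, which encodes the phosphatase CD45, and 9 other receptor-type protein tyrosine phosphatase genes (PTPRD, PTPRF, PTPRG, PTPRK, PTPRM, PTPRN, PTPRN2, PTPRS and PTPRZ1) were followed through 12 mRNA sequencing libraries of human neuroblastoma cells. They are 10 of the 61552 genes in the counts table, matched by Ensembl identifier, and were picked because PTPRC was high in the libraries of 1 line label. The difference between the line labels is therefore given for them as a description, without a test, and tests are kept for the response to ML210. Another 10 genes of the same family serve as a comparison.

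The 4 groups, each of 3 libraries from batches 1 to 3, were SK-N-BE(2) with ML210, SK-N-BE(2) control, SK-N-AS with ML210 and SK-N-AS control. All carry the genotype label WT, and the cells were kept overnight with ML210, a covalent inhibitor of the lipid peroxide reductase GPX4, or as controls; no dose is given in the sources used here. SK-N-BE(2) and SK-N-AS are established neuroblastoma lines, and with 1 line of each MYCN status any effect of that status cannot be told apart from the line. The labels give replicates a batch number and say nothing of separate cultures, so the p-values speak only of the spread among these libraries.

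Receptor-type tyrosine phosphatases are membrane proteins that remove phosphate from tyrosines on the inner face of the cell and carry an extracellular part that binds ligands or neighbouring cells. CD45 is abundant on nucleated blood cells, where it switches SRC-family kinases on and off by acting on their regulatory tyrosines. Most of the other members are known from neurons: PTPRF, PTPRS and PTPRD (the LAR group) act in axon growth and synapse formation, PTPRG and PTPRZ1 carry a carbonic anhydrase-like domain that binds contactins, PTPRK and PTPRM bind the same protein on the next cell, and PTPRN and PTPRN2 sit in the membrane of dense-core secretory granules.

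The catalytic signature separates the granule proteins from the rest, and its codons are shown for that reason. The runs below are 24 bases of coding sequence from GENCODE release 29 transcripts, read 5′ to 3′, with the codon of the catalytic cysteine and the third codon counted from it in capitals.
PTPRC: cacTGCagtGCTggtgttgggcgc
PTPRF: cacTGCagcGCGggcgtgggccgc
PTPRS: cacTGCagtGCCggtgtgggccgc
PTPRD: cacTGCagtGCGggagttggccgg
PTPRG: cacTGCagtGCTggtgtgggcaga
PTPRZ1: cacTGCagtGCTggagttggaaga
PTPRK: catTGCagtGCTggtgctggacga
PTPRM: cacTGCagtGCTggtgcagggagg
PTPRN: cacTGCagtGATggtgcggggagg
PTPRN2: catTGCagtGACggtgcaggccgg
These are the first match in each transcript to a histidine and a cysteine followed 6 residues later by an arginine. In 8 members the third codon counted from the cysteine codon began with GC and so encodes alanine, and in PTPRN (GAT) and PTPRN2 (GAC) it encodes aspartate. As background, the aspartate is a known reason why PTPRN and PTPRN2 lack the usual phosphatase activity. A second match was present in 5 members, with the codon at that place again beginning with GC in PTPRD, PTPRF and PTPRS but reading AAT in PTPRK and AAC in PTPRM. The runs come from the transcript annotation and not from the reads of these libraries.

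The start regions of the members also differed in base composition. PTPRC and PTPRG are shown because they had the widest gap between the line labels among members with more than 3 reads in every group. Each run is the plus-strand RefSeq window on GRCh38.p14 of 250 bases before to 50 bases after the start that RefSeq uses, with every CG in capitals, at chr1:198638790-198639089 for PTPRC and chr3:61561321-61561620 for PTPRG.
PTPRC: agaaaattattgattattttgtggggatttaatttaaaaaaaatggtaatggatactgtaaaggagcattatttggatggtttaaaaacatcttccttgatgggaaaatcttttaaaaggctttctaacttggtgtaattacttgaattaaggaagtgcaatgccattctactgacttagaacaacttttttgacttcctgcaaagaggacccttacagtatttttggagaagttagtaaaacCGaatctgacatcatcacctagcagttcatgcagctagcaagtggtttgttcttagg
PTPRG: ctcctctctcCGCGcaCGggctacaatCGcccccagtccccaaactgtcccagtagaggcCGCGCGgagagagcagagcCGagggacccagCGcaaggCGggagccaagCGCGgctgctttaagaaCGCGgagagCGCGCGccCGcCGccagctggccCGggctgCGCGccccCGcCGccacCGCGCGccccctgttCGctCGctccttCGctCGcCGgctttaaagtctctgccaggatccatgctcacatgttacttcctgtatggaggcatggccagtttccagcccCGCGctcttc
That start lies 583 bases downstream of the GENCODE gene start of PTPRC, so the PTPRC window is inside the gene as GENCODE draws it, and 2 bases downstream of that of PTPRG. The PTPRC window held 1 CG and was 33.7% G or C, and 11% of the 35116 promoter windows in the table held that few CGs or fewer. The PTPRG window held 34 CGs at 68.7% G or C. RefSeq windows were found for 9 of the 10 members, and the most CG-rich window of each of the 8 other than PTPRC held 25 to 55 CGs, against a median of 14 over all windows. CG reads the same on both strands. This is a description of the annotated sequence, and nothing about methylation or binding was measured.

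MYCN goes against the line labels in all 12 libraries, so the lines are called by their labels throughout and each direction between them is one between labels. MYCN stood at 0.0607 to 0.24 CPM in the 6 libraries labelled SK-N-BE(2) and at 3458 to 3933 CPM in the 6 labelled SK-N-AS. CPM are reads of the gene per 1000000 of the library's reads in the 20304 genes tested, scaled by TMM. Library totals lay between 54047293 and 83481963 counted reads. The ML210 library labelled SK-N-BE(2) of batch 3 stood apart from its replicates: leaving it out moved the number of genes called with ML210 in that line label to 1242, against 279 with it. GPX4 itself was at 234 ± 17.1 CPM with ML210 and 247 ± 9.23 CPM in controls labelled SK-N-BE(2), and at 248 ± 4.88 CPM with ML210 and 269.5 ± 11.2 CPM in controls labelled SK-N-AS (SD, n = 3). All 10 members passed the filter on low counts.

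The members split the line labels in opposite directions. In all 12 libraries PTPRC, PTPRG, PTPRM, PTPRF, PTPRK and PTPRZ1 were higher and PTPRN and PTPRN2 lower in the label SK-N-BE(2), while PTPRS and PTPRD overlapped. Between the control libraries these 6 and 2 members did not overlap, where 36.3% of the 20304 genes tested were higher without overlap and 37.7% lower; over all 6 libraries against 6 the shares were 30% and 31.2%. The members' median log2 difference between the controls was 1.24, against -0.0052 over all genes tested. That median includes the fit of PTPRZ1, which rests on 2 control reads labelled SK-N-AS. Nothing is read from these counts, since the members were chosen on this difference.

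**Figure D1:**
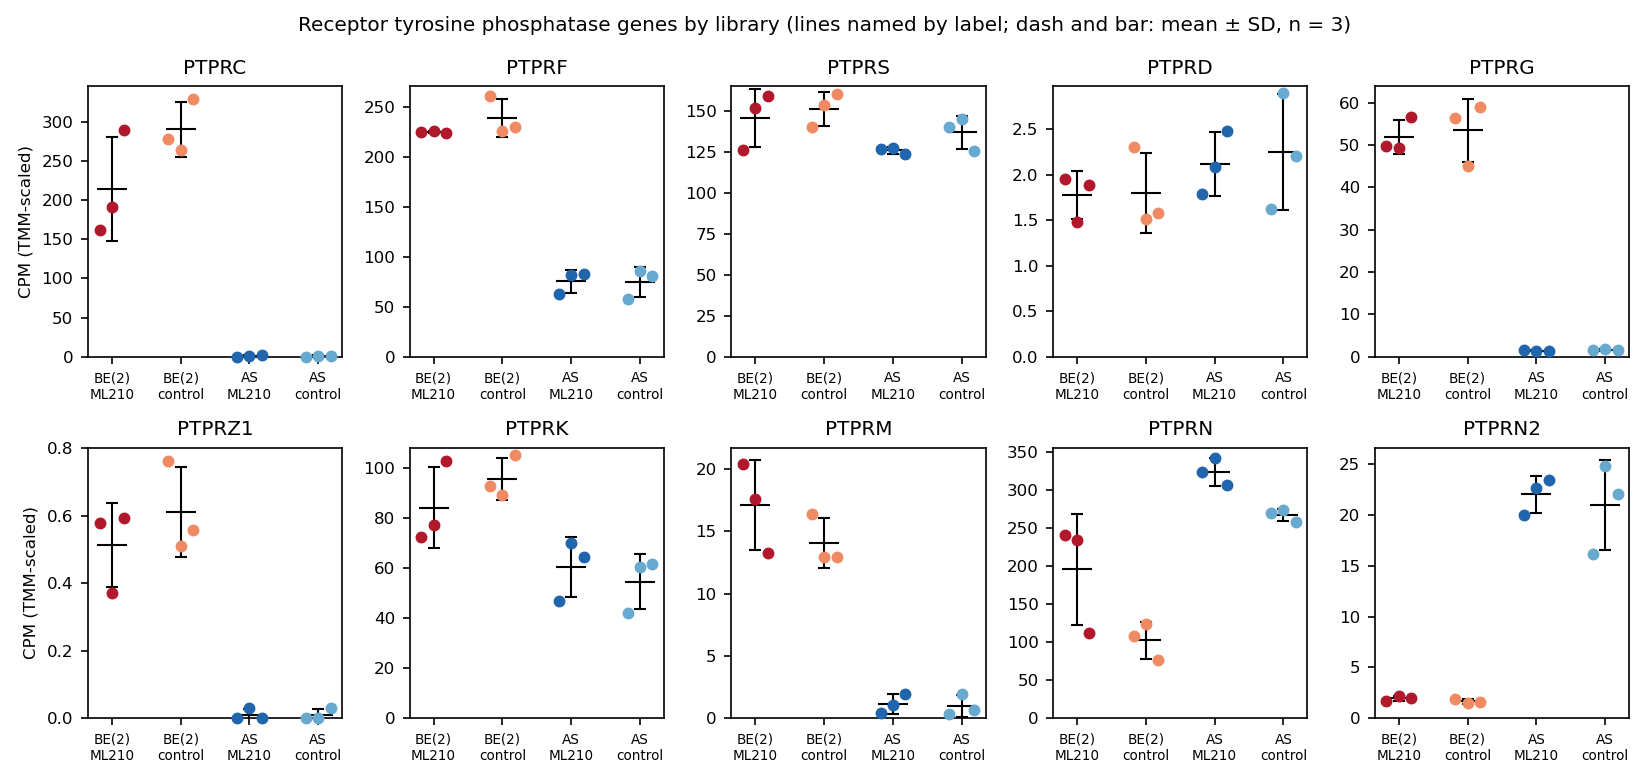
Level of each gene in CPM (TMM-scaled, linear axes starting at 0) in 12 libraries, by line label and treatment, with replicates 1 to 3 from left to right within a group, and the mean ± SD of 3 as a dash and bar. PTPRC lies between 162 and 329 CPM in the libraries labelled SK-N-BE(2) and at or under 2.12 CPM in those labelled SK-N-AS, while PTPRN lies higher in the libraries labelled SK-N-AS.

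PTPRC (ENSG00000081237, chromosome 1, 198638457 to 198757476, plus strand, GRCh38) had 162, 191 and 289 CPM in replicates 1, 2 and 3 of ML210 labelled SK-N-BE(2), and 278, 263 and 329 CPM in their controls. In libraries labelled SK-N-AS it had 0, 1.11 and 2.12 CPM with ML210 and 0, 1.63 and 1.33 CPM in controls. The batch 1 libraries labelled SK-N-AS held no PTPRC read in either treatment, and the other 4 held 76 to 133 reads each, against 10674 to 23564 in each library labelled SK-N-BE(2). The log2 difference between the controls (the label SK-N-BE(2) over SK-N-AS) was 8.27 (SE 0.876), and it lay between 7.61 and 8.87 when any 1 library was left out. Counts are per gene, so the splice forms of CD45 are not resolved here.

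The PTPRC traces in libraries labelled SK-N-AS went along with traces of other genes. A rule took protein-coding genes that reached 50 CPM in all 6 libraries labelled SK-N-BE(2) and stayed below 3% of that level in all 6 labelled SK-N-AS. The 41 genes it found other than PTPRC had medians of 0.388%, 1.2% and 1.79% of their mean level in the label SK-N-BE(2) in ML210 replicates 1, 2 and 3 labelled SK-N-AS, and 0.358%, 1.71% and 1.49% in their controls. PTPRC stood at 0%, 0.443% and 0.841% with ML210 and at 0%, 0.648% and 0.527% in controls on the same scale. It was thus below the median of those genes in each of the 6 libraries, and it was lowest in batch 1, as that median was. What gave rise to the traces was not tested.

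**Figure D2:**
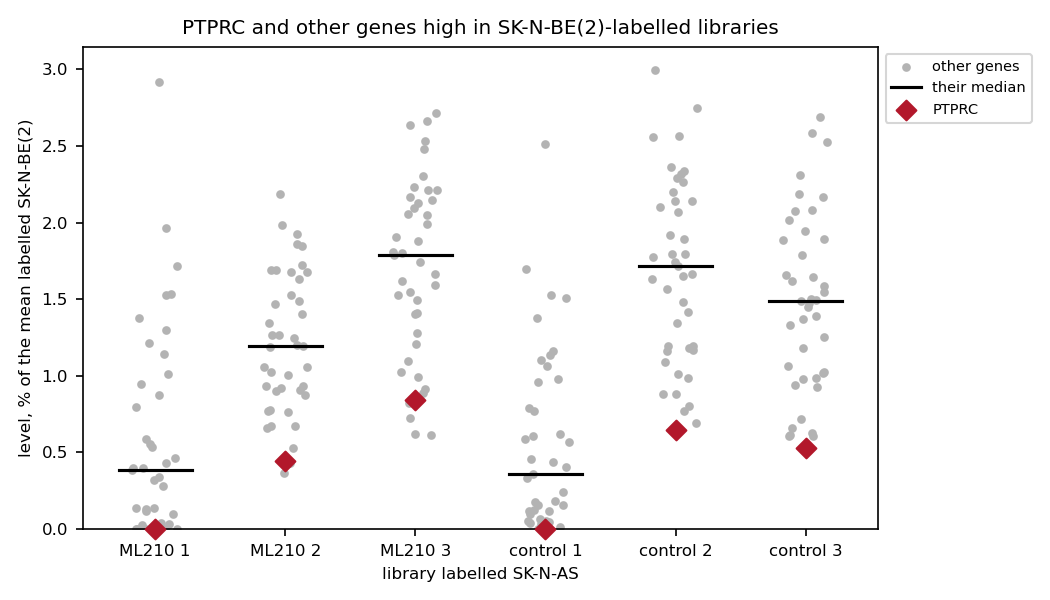
Level in each library labelled SK-N-AS as a percentage of the gene's mean in the 6 libraries labelled SK-N-BE(2), for PTPRC (diamond) and the 41 other genes that met the rule (grey points, scattered sideways at random; the line is their median). PTPRC is at 0% in both batch 1 libraries and below the median of the other genes in all 6.

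Because CD45 is a blood cell protein, a list of 31 blood cell markers was read beside it. Their summed level was 34.1 to 41.2 CPM with ML210 and 41.8 to 47.9 CPM in controls labelled SK-N-BE(2), and 104 to 184 CPM with ML210 and 116 to 207 CPM in controls labelled SK-N-AS. The actin-bundling gene LCP1 made most of that gap: without it the other 30 markers summed to 32.8 to 40.6 CPM with ML210 and 41.4 to 47.6 CPM in controls labelled SK-N-BE(2), and to 32.7 to 46.4 CPM with ML210 and 34.9 to 46.6 CPM in controls labelled SK-N-AS, and the labels overlapped. Of the 31 markers, 9 had no read with ML210 and 11 none in controls labelled SK-N-BE(2), and 12 had none with ML210 and 11 none in controls labelled SK-N-AS. CD3E (T cells) had no read in the libraries labelled SK-N-BE(2). The myeloid factor gene SPI1 had 2 and 6 reads there in all, with ML210 and in controls, and CD53 9 and 0. ITGB2 stood at 0.294 and 0.362 CPM, LAPTM5 at 0.852 and 1.13 CPM and CORO1A at 9.51 and 10.1 CPM. Fewer cells of a type and less RNA per cell cannot be told apart in bulk libraries.

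Of the 15 blood markers that could be tested between the controls, 5 were higher and 4 lower in the label SK-N-BE(2), where 33.9% of all genes were called higher and 35.2% lower. The lymphoid transcription factor gene IKZF1 was at 10.2 CPM in controls labelled SK-N-BE(2) and 0.0512 CPM in those labelled SK-N-AS (log2 7.63, SE 0.472, edgeR quasi-likelihood adjusted p = 9.84e-09). The tetraspanin gene CD37 was at 4.29 CPM in controls labelled SK-N-BE(2) and 0.0472 CPM in those labelled SK-N-AS (log2 6.40, SE 0.491). ARHGDIB (log2 1.78), the integrin gene ITGAL (4.34) and CSF1R (1.53) were the other higher ones. LCP1 went the other way, at 0.323 CPM in controls labelled SK-N-BE(2) and 127 CPM in those labelled SK-N-AS (log2 -8.60, SE 0.519), as did CORO1A (log2 -1.38), CD14 (-2.17) and CD34 (-1.75). The line labels differed too in neuroblastoma state markers: the sum of 12 mesenchymal genes was 3513 to 4326 CPM in controls labelled SK-N-BE(2) against 405 to 514 CPM in those labelled SK-N-AS, and that of 11 adrenergic genes had a median of 1596 CPM against a median of 8530 CPM. Their part in the PTPRC level was not tested.

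Across all 12 libraries, the 5 protein-coding genes whose pattern was most like that of PTPRC were PRRX1, CTAG2, ADGRG6, IFITM3 and OSMR. Likeness is the root mean square difference of centred log2 CPM over 12 libraries, and it was 0.359 for the mesenchymal homeobox gene PRRX1, 0.456 for the cancer-testis antigen gene CTAG2, 0.544 for the adhesion receptor gene ADGRG6, 0.711 for IFITM3 and 0.792 for OSMR. All 5 had no read in the ML210 library of batch 1 labelled SK-N-AS, where PTPRC had none either. They were picked for likeness over these same libraries, so the pick itself favours this and their gap between the labels. PRRX1 averaged 186 CPM with ML210 and 257 CPM in controls labelled SK-N-BE(2), and 0.848 CPM with ML210 and 0.985 CPM in controls labelled SK-N-AS.

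The known partners of CD45 did not follow 1 direction. Of the 12 tested from a list of 17, 7 were higher and 3 lower in controls labelled SK-N-BE(2) than in those labelled SK-N-AS, beside 33.9% and 35.2% of all genes, with a median log2 difference of 0.67. The SRC-family kinases were unequal: FYN stood at 15.1 CPM in controls labelled SK-N-BE(2) and 139 CPM in those labelled SK-N-AS (log2 -3.21, SE 0.107, edgeR adjusted p = 1.68e-11), and LYN had a log2 difference of -2.43 (SE 0.101). YES1 went the other way, at 107 CPM in controls labelled SK-N-BE(2) and 1.77 CPM in those labelled SK-N-AS (log2 5.94, SE 0.32). The cytokine receptor kinase JAK1, also a CD45 substrate, was at 167 CPM in controls labelled SK-N-BE(2) and 75.6 CPM in those labelled SK-N-AS (log2 1.14, SE 0.0585). The adaptor gene PAG1 was the remaining lower one (log2 -1.28). LCK, the T cell kinase that CD45 is best known for, did not pass the filter on low counts, and PTPRCAP, which encodes the CD45-associated protein, had no read.

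In the LAR group PTPRF did not overlap between the labels, and PTPRS and PTPRD did. PTPRF (ENSG00000142949, chromosome 1, 43525187 to 43623666, plus strand) had 225.5, 226 and 223.8 CPM in ML210 replicates and 261, 226.5 and 231 CPM in controls labelled SK-N-BE(2), and 62.7, 81.9 and 82.5 CPM with ML210 and 58.3, 85.6 and 80.8 CPM in controls labelled SK-N-AS. All libraries labelled SK-N-BE(2) were above all labelled SK-N-AS, with a log2 difference between the controls of 1.68 (SE 0.141). PTPRS (ENSG00000105426, chromosome 19, 5158495 to 5340803, minus strand) was nearly level, at 126, 152 and 159 CPM with ML210 and 140, 154 and 160.2 CPM in controls labelled SK-N-BE(2), and at 127, 127 and 123.5 CPM with ML210 and 140.3, 145 and 126 CPM in controls labelled SK-N-AS. The ranges of the labels overlapped (log2 0.14, SE 0.0836). PTPRD (ENSG00000153707, chromosome 9, 8314246 to 10612723, minus strand) was low everywhere, between 1.48 and 2.30 CPM in the 6 libraries labelled SK-N-BE(2) and between 1.63 and 2.90 CPM in the 6 labelled SK-N-AS.

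Of the contactin-binding members, PTPRG (ENSG00000144724, chromosome 3, 61561569 to 62297613, plus strand) had 49.8, 49.4 and 56.5 CPM with ML210 and 56.5, 45 and 59 CPM in controls labelled SK-N-BE(2), and 1.61, 1.48 and 1.34 CPM with ML210 and 1.496, 1.86 and 1.55 CPM in controls labelled SK-N-AS. All 6 libraries of the label SK-N-BE(2) lay far above all 6 of the label SK-N-AS (log2 5.03 between the controls, SE 0.133). Unlike PTPRC, PTPRG was present in batch 1 libraries labelled SK-N-AS at a level like that of the other batches, 2.54% to 3.53% of its mean in the label SK-N-BE(2). The gene PTPRG-AS1 shares exonic bases with PTPRG on the opposite strand and had 262 to 332 reads per library labelled SK-N-BE(2) and 330 to 564 per library labelled SK-N-AS, where PTPRG had 82 to 116; the strand setting of the counting is not given in the sources used here, so reads of the pair cannot be told apart. PTPRZ1 (ENSG00000106278, chromosome 7, 121873089 to 122062036, plus strand) had 103 reads over the 3 ML210 libraries and 124 over the 3 controls labelled SK-N-BE(2), and 2 and 2 reads labelled SK-N-AS. Its ratio between the controls was 61.1 (95% exact counting interval 16.6 to 509.7), and the 2 control reads labelled SK-N-AS were both in replicate 3, without which that group held none.

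PTPRM and PTPRK, which carry a MAM domain and bind the same protein on a neighbouring cell, were both higher in the label SK-N-BE(2), by very different amounts. This describes these members only. Of the 9 other receptor-type genes tested between the controls, 3 were higher and 4 lower, PTPRU and PTPRT among the lower. PTPRM (ENSG00000173482, chromosome 18, 7566782 to 8406861, plus strand) had 20.4, 17.6 and 13.2 CPM with ML210 and 16.4, 12.9 and 12.9 CPM in controls labelled SK-N-BE(2), and 0.413, 1.10 and 1.96 CPM with ML210 and 0.364, 1.99 and 0.648 CPM in controls labelled SK-N-AS. The controls differed by a log2 of 3.84 (SE 0.604), and the replicates labelled SK-N-AS spread widely. PTPRK (ENSG00000152894, chromosome 6, 127968779 to 128520674, minus strand) had 72.5, 77.1 and 103 CPM with ML210 and 92.9, 89 and 105 CPM in controls labelled SK-N-BE(2), and 47, 70.1 and 64.3 CPM with ML210 and 41.9, 60.4 and 61.5 CPM in controls labelled SK-N-AS. The lowest library labelled SK-N-BE(2) lay just above the highest labelled SK-N-AS (log2 0.81 between the controls, SE 0.194).

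The granule members ran the other way. PTPRN (ENSG00000054356, chromosome 2, 219289623 to 219309648, minus strand) had 241, 234 and 112 CPM with ML210 and 108, 123 and 76.1 CPM in controls labelled SK-N-BE(2), and 323, 342 and 306 CPM with ML210 and 269, 273 and 258 CPM in controls labelled SK-N-AS. The controls differed by a log2 of -1.38 (SE 0.274), and the highest library labelled SK-N-BE(2), an ML210 one, stayed below the lowest labelled SK-N-AS. PTPRN2 (ENSG00000155093, chromosome 7, 157539056 to 158587788, minus strand) had 1.70, 2.17 and 2.02 CPM with ML210 and 1.93, 1.46 and 1.59 CPM in controls labelled SK-N-BE(2), and 20, 22.6 and 23.5 CPM with ML210 and 16.2, 24.8 and 22.1 CPM in controls labelled SK-N-AS. The labels stood well apart (log2 -3.66 between the controls, SE 0.175).

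Levels of different genes can be compared only per length, here as CPM per kb of exon length. In controls labelled SK-N-BE(2) PTPRC had the highest level of the 10 members, at 31.6 ± 3.76 CPM per kb (SD, n = 3), followed by PTPRF at 22.4 ± 1.76, PTPRS at 17.7 ± 1.21, PTPRN at 12.4 ± 2.92 and PTPRK at 10.6 ± 0.926; PTPRN and PTPRK overlapped in range. Per kb of coding length PTPRN, at 34.9 CPM, came before PTPRS, at 25.9 CPM, in those controls. With ML210 in that label PTPRN was at 23.7 ± 8.79, PTPRC at 23.3 ± 7.24 and PTPRF at 21 ± 0.101 CPM per kb, and neighbours among these 3 overlapped. PTPRN led in the label SK-N-AS with 39.2 ± 2.19 CPM per kb with ML210 and 32.3 ± 0.935 in controls, apart from PTPRS at 14.7 ± 0.25 with ML210 and 16 ± 1.18 in controls. PTPRC was there at 0.118 ± 0.116 CPM per kb with ML210 and 0.108 ± 0.0947 in controls, overlapping PTPRM.

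The summed level of the 20 receptor-type genes was 137 ± 6.2 CPM per kb with ML210 and 143.5 ± 2.98 in controls labelled SK-N-BE(2), and 139 ± 2.51 with ML210 and 129 ± 4.46 in controls labelled SK-N-AS (SD, n = 3). PTPRC made up 17% of the sum of group means with ML210 and 22% in controls labelled SK-N-BE(2), against 0.0845% with ML210 and 0.0837% in controls labelled SK-N-AS. PTPRN made up 17.2% and 8.65% of it with ML210 and in controls labelled SK-N-BE(2), and 28.1% with ML210 and 25.1% in controls labelled SK-N-AS.

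**Figure D3:**
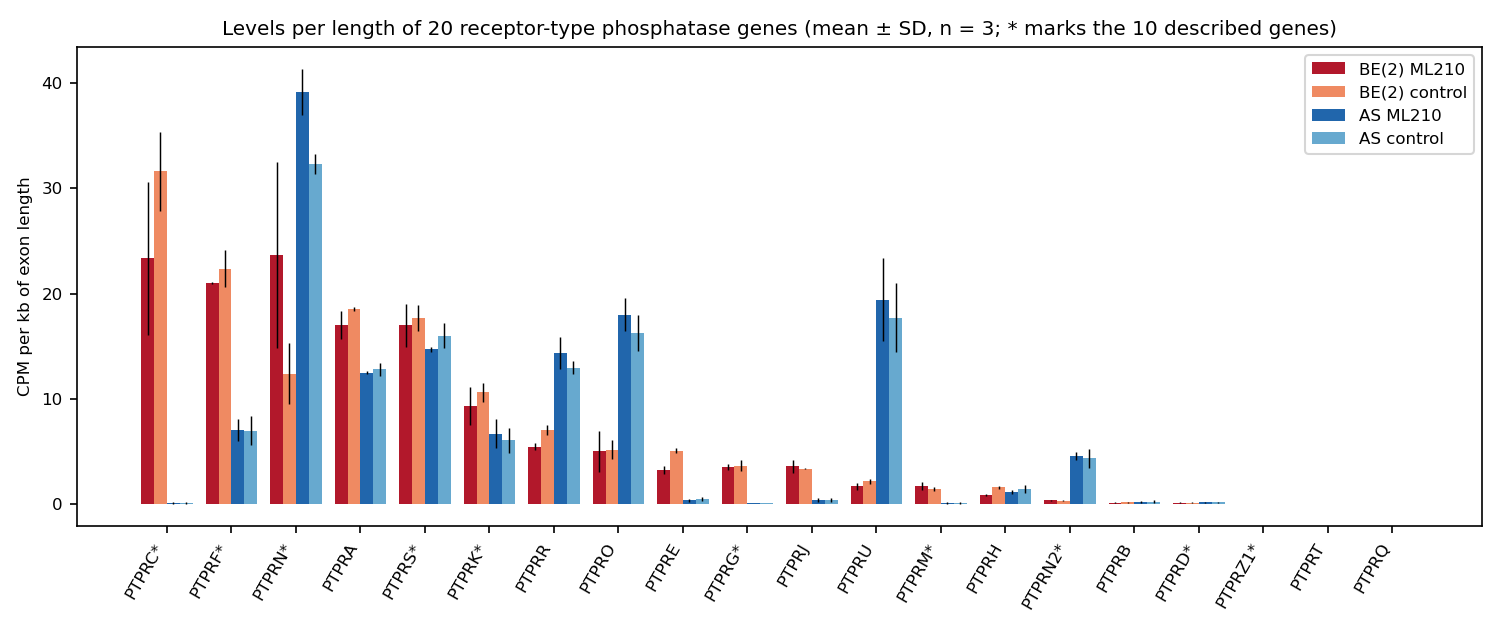
Level per length of 20 receptor-type phosphatase genes, as the mean ± SD of 3 libraries in CPM per kb of exon length, by line label and treatment; asterisks mark the 10 genes described. PTPRC is the highest bar of the controls labelled SK-N-BE(2) at 31.6 and PTPRN the highest of the controls labelled SK-N-AS at 32.3 CPM per kb.

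Among the 9 other receptor-type genes that could be tested between the controls, 3 were higher and 4 lower in the label SK-N-BE(2), near the 33.9% and 35.2% of all genes. PTPRE, a relative of PTPRA with a short extracellular part, stood at 57 CPM in controls labelled SK-N-BE(2) and 5.35 CPM in those labelled SK-N-AS (log2 3.42, SE 0.326, edgeR adjusted p = 5.41e-06). PTPRJ (log2 3.08, SE 0.398) and PTPRA (0.54, SE 0.0624) were also higher, and PTPRU (-3.03, SE 0.201), PTPRT (-2.90, SE 0.862), PTPRO (-1.65, SE 0.24) and PTPRR (-0.87, SE 0.0817) lower. PTPRQ did not pass the filter on low counts.

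The classical non-receptor phosphatases were called in both directions. Of 14 tested, 8 were higher and 4 lower in controls labelled SK-N-BE(2) than in those labelled SK-N-AS, where the shares of all genes were 33.9% and 35.2%, with a median log2 difference of 0.33. PTPN21 stood at 33.9 CPM in controls labelled SK-N-BE(2) and 5.93 CPM in those labelled SK-N-AS (log2 2.51, SE 0.136, edgeR adjusted p = 1.25e-09). PTPN2, which acts on JAK kinases and STAT proteins (log2 1.31, SE 0.0769), and PTPN18 (1.61, SE 0.111) were also higher. The largest differences of the higher genes were those of PTPN3 (log2 7.31) and PTPN14 (5.88). Those lower were PTPN1 (-0.58), PTPN20 (-6.17), PTPN23 (-0.31) and PTPN9 (-0.20). PTPN20 was low in both labels, at 0.0216 CPM in controls labelled SK-N-BE(2) and 1.55 CPM in those labelled SK-N-AS. With library totals in place of TMM, 2 were lower.

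Genes of the members' partners were described in the same way. Of 25 extracellular ligands and partners tested, 11 were higher and 10 lower in controls labelled SK-N-BE(2), against 33.9% and 35.2% over all genes. The lower ones included NRCAM (3.41 CPM in controls labelled SK-N-BE(2) and 572 CPM in those labelled SK-N-AS, log2 -7.39, SE 0.0954, edgeR adjusted p = 7.01e-15), NCAM1 (log2 -3.48) and L1CAM (-3.39), neural adhesion molecules, and the PTPRS partner NTRK3 (-5.11). Among the higher ones were SLITRK6 (log2 4.95), IL1RAP (5.35), LRRC4B (3.70) and AGRN (2.46). Of 12 intracellular partners of the LAR and MAM-domain groups, 5 were higher and 3 lower, beside the same shares. Those higher were the guanine exchange factor gene TRIO (log2 0.75), the liprin-beta gene PPFIBP1 (1.31), the N-cadherin gene CDH2 (0.56), the p120 catenin gene CTNND1 (0.88) and the cortactin gene CTTN (0.34). Those lower were the liprin-alpha gene PPFIA3 (-1.46), the scaffold gene CASK (-0.69) and the beta-catenin gene CTNNB1 (-0.42).

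The granule list was mostly lower in the label SK-N-BE(2), the direction of PTPRN and PTPRN2. Of 13 genes tested from this list of granule genes and other partners of PTPRN and PTPRN2, 10 were lower and 2 higher in controls labelled SK-N-BE(2). Of all genes tested 35.2% were lower and 33.9% higher there, and the list had a median log2 difference of -1.93. The vesicular monoamine transporter gene SLC18A2 stood at 0.156 CPM in controls labelled SK-N-BE(2) and 5.44 CPM in those labelled SK-N-AS (log2 -5.11, SE 0.269, edgeR adjusted p = 9.21e-10), and the secretogranin gene SCG3 (log2 -4.58), the vesicle GTPase gene RAB3A (-1.91) and the calcium sensor gene SYT1 (-0.91) were lower too. The higher genes were CPE, which encodes the prohormone-processing carboxypeptidase E (log2 4.46), and STAT5B (0.47). None of the partner lists, the CD45 partners or the non-receptor phosphatases had a member called with ML210 in either label by this test.

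With ML210, no member was called in either label at an adjusted p under 0.05 by edgeR's quasi-likelihood test without pairing by batch. That was 0 of 10 in the label SK-N-BE(2), where 1.37% of all genes tested were called, 0 of 10 in the label SK-N-AS (0.0296% of all genes), and 0 of 10 for the difference of the responses (0.00493%). At an unadjusted p under 0.05 it was 1 member, PTPRN, in the label SK-N-BE(2) and 0 in the other comparisons, where 13.5% of all genes tested passed in that label, 6.89% in the label SK-N-AS and 7.16% for the difference of the responses. DESeq2 called PTPRN in the label SK-N-BE(2), where it called 3.89% of all genes tested. It called no member in the label SK-N-AS or for the difference, where it called 52 and 45 of all 20304 genes. With the replicate block, which pairs libraries by batch, PTPRN was called in the label SK-N-BE(2), where 6.83% of all genes were. No member was called with that block in the label SK-N-AS (0.187% of all genes were) or for the difference of the responses (0.419%). The members' median log2 difference was -0.049 in the label SK-N-BE(2) and 0.088 in the label SK-N-AS, against 0.0010 and -0.0076 over all genes tested. PTPRZ1 had 2 reads per group in the label SK-N-AS, too few for a call there or for the difference of the responses. It still counts among the 10 members and in the median of that label.

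PTPRN came nearest to a call in the fit without pairing, and it was called with the replicate block. Its level with ML210 was higher than in the control of the same batch in 6 of 6 pairs, a pattern shared by 4.56% of all genes tested, with log2 differences of 1.15, 0.93 and 0.56 for batches 1, 2 and 3 labelled SK-N-BE(2) and 0.26, 0.33 and 0.24 labelled SK-N-AS. In the label SK-N-BE(2) the fitted log2 difference was 0.93 (SE 0.272, edgeR adjusted p = 0.152), and the groups overlapped because ML210 replicate 3, at 112 CPM, lay below control replicate 2, at 123 CPM. With the replicate block, which pairs libraries of a batch, it was 0.88 (SE 0.0904, adjusted p = 0.000741) and PTPRN was 1 of 1386 genes called, 6.83% of those tested. DESeq2 gave 0.92 (adjusted p = 0.0169, with 3.89% of genes called), and edgeR without ML210 replicate 3 gave 1.19 (adjusted p = 0.00271, with 5.9% called).

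The PTPRN groups labelled SK-N-AS did not overlap, where 6.01% of all genes were higher without overlap, but the log2 difference of 0.28 (SE 0.269) had an edgeR adjusted p of 0.914, or 0.296 with the replicate block. The responses of the labels differed by 0.65 (SE 0.381, adjusted p = 0.769, or 0.0799 with the replicate block). The mean response over both labels, a comparison chosen after these values were seen, was 0.60 (SE 0.191, adjusted p = 0.184, with 1.23% of all genes called). With the replicate block it was 0.58 (SE 0.0632, edgeR adjusted p = 0.00118, with 6.11% called), and with DESeq2 0.60 (adjusted p = 0.0336, with 4.06% called). PTPRN2, its relative in the granule membrane, was at 1.96 ± 0.239 CPM with ML210 and 1.66 ± 0.242 CPM in controls labelled SK-N-BE(2), a log2 difference of 0.24 (SE 0.176, adjusted p = 0.631).

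**Figure D4:**
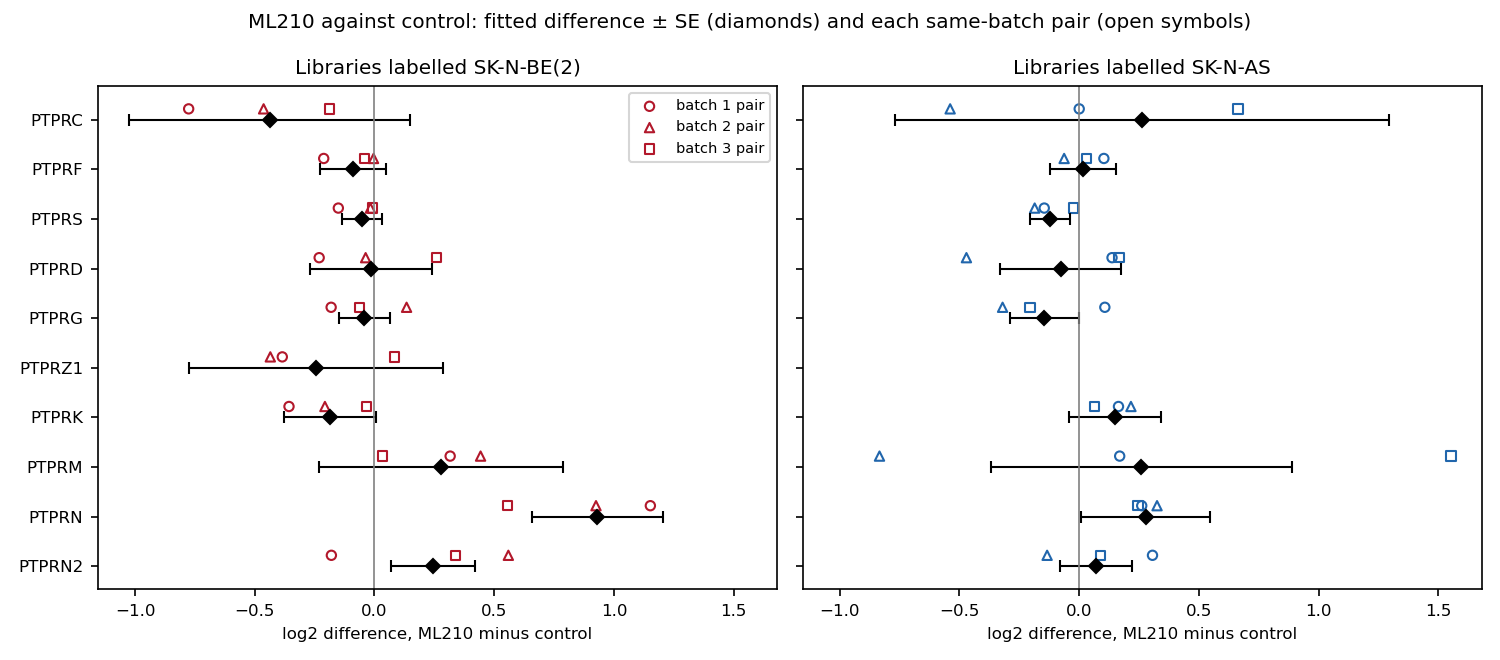
Log2 difference of ML210 minus control for each gene, as the fitted value ± SE (diamonds) and for each same-batch pair (open symbols), in libraries labelled SK-N-BE(2) on the left and SK-N-AS on the right; PTPRZ1 is left out on the right because it had 2 reads per group. PTPRN lies above 0 in all 6 pairs, and PTPRK lies below 0 in the 3 pairs labelled SK-N-BE(2) and above 0 in the 3 labelled SK-N-AS.

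PTPRS was lower with ML210 than in the control of its batch in 6 of 6 pairs, as 6.11% of all genes were, by small amounts: the log2 differences lay between -0.15 and -0.008 labelled SK-N-BE(2) and between -0.19 and -0.025 labelled SK-N-AS, and neither fitted value passed the test (edgeR adjusted p = 0.874 and 0.833). PTPRC was lower with ML210 than in the same-batch control in the 3 pairs labelled SK-N-BE(2), by log2 differences of -0.78, -0.46 and -0.19, and its groups overlapped. The fitted difference of -0.44 (SE 0.588) had an edgeR adjusted p of 0.85, or 0.194 with the replicate block. In the label SK-N-AS its value of 0.26 (SE 1.03) rests on the traces given above and changed sign when 1 library was left out. PTPRF was the only member in the label SK-N-BE(2) whose groups did not overlap, at 225 ± 1.08 CPM with ML210 and 239 ± 18.9 CPM in controls (8.18% of all genes were lower without overlap), and its difference of -0.089 (SE 0.137) had an adjusted p of 0.874.

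PTPRK had pair differences of opposite sign in the labels and did not pass the test. Its same-batch log2 differences were -0.36, -0.21 and -0.034 labelled SK-N-BE(2) and 0.16, 0.22 and 0.063 labelled SK-N-AS, a pattern of opposite signs found in 4.48% of all genes. The difference of the responses was -0.34 (SE 0.272, edgeR adjusted p = 0.845, or 0.114 with the replicate block). In the label SK-N-BE(2) alone its difference of -0.19 (SE 0.192, adjusted p = 0.780) became a call only with the replicate block and both batch 3 libraries of that label left out (log2 -0.32, adjusted p = 0.0108, with 8.96% of all genes called), a setting added after the data were seen. PTPRM, PTPRD, PTPRG, PTPRS and PTPRZ1 had fitted log2 differences between -0.25 and 0.28 in the label SK-N-BE(2), all with adjusted p of 0.874 or more. Labelled SK-N-AS, the differences of PTPRM, PTPRD, PTPRG and PTPRS lay between -0.15 and 0.26, with adjusted p of 0.833 or more, and PTPRZ1 is given no fold there.

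Of the other receptor-type genes, PTPRR, which encodes a neuronal phosphatase of MAP kinases, was called with ML210 in the label SK-N-BE(2). It was at 26.4, 28.7 and 29.4 CPM with ML210 and 38.6, 36.9 and 33.5 CPM in controls, without overlap (log2 -0.37, SE 0.0819, edgeR adjusted p = 0.0453). It was 1 of 9 tested there, beside 1.37% of all genes. PTPRH (-0.81, SE 0.189, edgeR adjusted p = 0.0527), PTPRE (-0.64, SE 0.291, adjusted p = 0.388) and PTPRA (-0.13, SE 0.0621, adjusted p = 0.399) did not pass. The ML210 libraries of PTPRR and of each of these genes lay below their controls, as in 8.18% of all genes tested.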

How the data were processed

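Stranded mRNA libraries were sequenced on an Illumina NovaSeq instrument, per the labels' protocols. The deposited values are counts of reads per gene, not normalized by the authors. Per the submitters' processing notes reads were handled with featureCounts 2.0.5, HISAT2 2.2.1, Trimmomatic (version written as 1.4) and FastQC on the build GRCh38. The sources used here do not name the annotation, the strand setting or the handling of multi-mapping reads.

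Symbols came from a gene name table for 61399 of 61552 identifiers and from GENCODE release 29 for 145 more; coordinates and lengths are from that release. Counts were analysed in edgeR 4.0.16 (R 4.3.3): filterByExpr by group left 20304 genes, libraries were scaled by TMM, and all 12 entered 1 robust quasi-likelihood fit by group, with 8 residual degrees of freedom and a common dispersion of 0.0223. Tests were two-sided with Benjamini-Hochberg adjustment over all genes tested, called under 0.05. An SE is the log2 difference divided by the square root of F. Log2 CPM used a prior count of 2. Intervals cover counting error only, and a comparison with a group of 3 reads or fewer was given no fitted fold, only a ratio of reads with its interval where the other group had more. Such fits of PTPRZ1 still enter the medians over the members. DESeq2 1.42.0, other size factors, no filter, single-line fits, left-out libraries and a replicate block (4 residual degrees of freedom) were alternatives.

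The labels give same-numbered libraries a shared batch, which pairs them. Deviations from the group means of same-batch ML210 and control libraries correlated at 0.096, 0.12 and 0.169 labelled SK-N-BE(2) and 0.357, 0.068 and 0.121 labelled SK-N-AS for batches 1, 2 and 3. Different-batch pairs lay between -0.1 and -0.007 labelled SK-N-BE(2) and between -0.269 and 0.189 labelled SK-N-AS. In the label SK-N-AS, ML210 2 with control 3 (0.125) and ML210 3 with control 2 (0.189) lay above the same-batch values of batches 2 and 3. No 2 libraries were identical.

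The members and lists were chosen with earlier results of these data known. Named genes are all 10 members, MYCN and GPX4, the 5 genes most like PTPRC, up to 4 called genes with the smallest adjusted p per list, any gene needed to state a count of 5 or fewer, and genes that overlap a member. PTPRH, PTPRE and PTPRA with ML210, and LCK, PTPRCAP and PTPRQ, were named after their values were seen. So were the higher extracellular partners SLITRK6, IL1RAP, LRRC4B and AGRN, and the non-receptor genes PTPN3 and PTPN14.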

Additional observations from a re-analysis of the deposited data

Results flagged for a closer look

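PTPRK and PTPRR had same-batch ML210 differences of 1 sign in all 3 pairs of one line label and of the opposite sign in all 3 pairs of the other, as 4.48% of all genes tested did. For PTPRK the response labelled SK-N-BE(2) minus that labelled SK-N-AS was -0.335 on the log2 scale (SE 0.272), and the edgeR quasi-likelihood test of this difference gave an adjusted p of 0.845. For PTPRR it was -0.517 (SE 0.115, adjusted p = 0.413), with levels of 28.1 ± 1.54 CPM with ML210 and 36.3 ± 2.61 CPM in controls labelled SK-N-BE(2), and 73.9 ± 7.63 CPM with ML210 and 66.6 ± 3.13 CPM in controls labelled SK-N-AS (SD, n = 3). Neither difference passed the test over all genes.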

How the results depend on the processing

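The number of members called with ML210 in the label SK-N-BE(2) was 0 in the fit reported and 1 with DESeq2, 1 with the replicate block, 2 with the replicate block and both batch 3 libraries of that label left out, and from 0 to 1 when each replicate was left out in turn; the called genes were PTPRN in each case and PTPRK beside it in the third. In the label SK-N-AS and for the difference of the responses it was 0 under every alternative run. The counts of all genes called moved far more. In the label SK-N-BE(2) the 279 genes became 790 with DESeq2, 556 without a filter, 1386 with the replicate block, 1864 with the replicate block and batch 3 left out, 51 with the libraries of that line label alone, and 48 to 1242 with 1 replicate left out. In the label SK-N-AS the 6 genes became 52 with DESeq2, 33 without a filter, 38 with the replicate block, 21 with that line label alone and 3 to 13 with 1 replicate left out. For the difference of the responses the single gene became 45 with DESeq2, 24 without a filter, 85 with the replicate block and 1 to 156 with 1 replicate left out. The libraries that moved a count over 1.5 times when left out were all 6 labelled SK-N-BE(2) and ML210 replicates 2 and 3 labelled SK-N-AS for the first comparison, ML210 and control replicates 2 labelled SK-N-AS and ML210 replicate 3 labelled SK-N-BE(2) for the second, and that last library for the third. Used without leaving out libraries, the replicate block changed the call of PTPRN in the label SK-N-BE(2) and for the mean response over both labels. It changed the call of no other member. DESeq2 changed both of these PTPRN calls too. The causes were not tested.

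Scaling mattered between the line labels: when library totals replaced TMM, the median log2 difference of all genes between the controls was 0.24, against -0.0052, and 8575 genes were called higher and 5550 lower in the label SK-N-BE(2), against 6893 and 7154. No member's difference between the controls changed sign, and 2 of the non-receptor phosphatases were lower in place of 4 (3 to 4 with 1 replicate left out). By coding length PTPRC ranked 8 of 10 in ML210 libraries labelled SK-N-AS, against 7 by exon length; PTPRG and PTPRK moved up there and PTPRF and PTPRM down, and PTPRN and PTPRS changed places in controls labelled SK-N-BE(2). Uncalled ML210 differences of members near 0 changed sign when 1 replicate was left out. In the label SK-N-BE(2) they ranged from -0.14 to 0.19 for PTPRD, -0.17 to 0.005 for PTPRG and -0.14 to 0.03 for PTPRS. In the label SK-N-AS they ranged from -0.60 to 0.87 for PTPRC, -0.27 to 0.15 for PTPRD, -0.14 to 0.13 for PTPRF, -0.01 to 0.30 for PTPRK, -0.33 to 1.24 for PTPRM and -0.089 to 0.20 for PTPRN2. For the difference of the responses they ranged from -1.31 to 0.16 for PTPRC, -0.16 to 0.25 for PTPRD, -0.22 to 0.046 for PTPRF, -0.033 to 0.16 for PTPRG, -0.96 to 0.61 for PTPRM and -0.033 to 0.14 for PTPRS; PTPRM was also -0.033 with library totals and -0.018 without a filter. Depth limits PTPRZ1 in both labels, and PTPRC and PTPRM in the label SK-N-AS, which had at most 133 reads of either per library.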
